A study of Mus musculus with 20 samples.

Results

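DNA methylation was examined in windows of 1000 bp that divided the wild-type mice of 1 age into a set with high and a set with low measured values, with no mouse in between. A window was taken when each of the 5 wild-type (WT) libraries at 10 months was either at most 10% or at least 70% methylated, with at least 2 libraries of each kind. On the autosomes, 32 of 2224981 measured windows met this rule, and they are called bimodal windows here. The windows were chosen by the measured values of those 5 WT libraries, so these values are given as a description. A later comparison of the genotypes at 10 months uses them, and nothing is read from its counts. The other 15 libraries did not enter the rule.

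The libraries were made by enzymatic methyl sequencing (EM-seq), in which enzymes convert unmethylated cytosine so that it is read as thymine, from DNA of microglia isolated from 1 whole mouse brain each. The mThy1-α-synuclein mice (Tg) carry human wild-type α-synuclein under the mouse Thy-1 promoter on the X chromosome, a promoter known for its activity in neurons, and the controls were WT littermates. All were males on the B6D2F1/J background, a cross of the inbred strains C57BL/6J and DBA/2J. The younger age of 7 months had 6 Tg and 4 WT mice, and the age of 10 months had 5 of each genotype. The labels name IBA1 as the marker for the magnetic selection of microglia and the study's methods name CD11b. Mice of both genotypes were handled together within each age, and the effects of age and of handling cannot be told apart.

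Cytosine methylation in mammals is found mainly at CpG dinucleotides, where a maintenance enzyme copies it to the new strand when DNA is replicated. Most CpGs between and within genes are methylated in a somatic tissue, and CpG-dense gene starts are mostly free of methylation. A window value counts all CpG reads of all cells of a library, so a value between the extremes can come from cells that differ, from the 2 parental copies or from neighbouring CpGs that differ. A thymine in a mouse's own genome at a reference CpG also lowers the value, because it is read as unmethylated. Genotypes of the mice were not used, so its part in the low and middle values was not tested.

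Labels were checked in the window of the Thy1 gene on chromosome 9 that starts at base 44048001. At 10 months it was 70.2% to 76.9% methylated in the WT libraries and 30.2% to 35.7% in the Tg libraries. At 7 months WT 2 was at 31.0% against 68.4% to 75.5% in the other WT libraries. Tg 6 was at 73.6%, Tg 1, 4 and 5 were at 31.4% to 33.3%, and Tg 2 and 3 were at 53.7% and 53.1%. Tg 2 and 3 thus lay between the genotypes. WT 2 and Tg 6 go against their labels, and comparisons of the 7-month groups are therefore also given without them. The start windows of 11 of 14 microglial marker genes had a median under 25%, as did 3 of 6 for neurons, 1 of 5 for astrocytes and 2 of 5 for oligodendrocytes. The start window of Aif1, the gene of IBA1, was at 74.4% to 96.1%. The depth behind each value is unknown, because the deposited fractions carry no read counts.

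The reference sequences around the CpGs of 8 bimodal windows are printed here because the values below turn on few CpGs. They are plus-strand bases of the mouse reference GRCm38 (the assembly that mm10 names), 5′ to 3′, with every CG in capitals. In 6 of the 32 windows a single reference CpG carries the whole value. It is shown with 30 bases on either side, first for 2 windows of distal chromosome 3 and then for 4 windows of chromosome 6, of which one lies in an intron of Mitf.
Window chr3:136437001-136438000, chr3:136437098-136437159: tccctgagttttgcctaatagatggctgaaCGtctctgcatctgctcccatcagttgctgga
Window chr3:139961001-139962000, chr3:139961508-139961569: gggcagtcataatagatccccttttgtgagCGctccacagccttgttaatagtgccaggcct
Window chr6:87415001-87416000, chr6:87415616-87415677: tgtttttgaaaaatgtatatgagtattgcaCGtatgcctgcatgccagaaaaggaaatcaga
Window chr6:97823001-97824000 in Mitf, chr6:97823638-97823699: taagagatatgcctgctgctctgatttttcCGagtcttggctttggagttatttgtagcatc
Window chr6:101487001-101488000, chr6:101487751-101487812: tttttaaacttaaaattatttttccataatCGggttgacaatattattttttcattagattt
Window chr6:101489001-101490000, chr6:101489922-101489983: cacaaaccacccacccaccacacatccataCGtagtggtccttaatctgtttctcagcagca
The bimodal window with the most reference CpGs, 22, lies on chromosome 6, and the 300 bases shown hold 18 of them. Within this run, 81 bases that begin at its base 4 recur letter by letter from its base 216.
Window chr6:73501001-73502000, chr6:73501638-73501937: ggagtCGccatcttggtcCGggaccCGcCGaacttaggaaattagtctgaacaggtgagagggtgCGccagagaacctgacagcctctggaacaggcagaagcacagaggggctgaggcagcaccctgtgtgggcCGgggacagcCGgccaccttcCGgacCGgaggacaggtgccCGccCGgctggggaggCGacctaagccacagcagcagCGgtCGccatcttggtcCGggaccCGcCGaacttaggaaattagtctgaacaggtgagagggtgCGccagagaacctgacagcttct
The last run comes from the window that overlaps an exon of Sec23b and holds 6 of its 10 CpGs.
Window chr2:144559001-144560000 in Sec23b, chr2:144559223-144559522: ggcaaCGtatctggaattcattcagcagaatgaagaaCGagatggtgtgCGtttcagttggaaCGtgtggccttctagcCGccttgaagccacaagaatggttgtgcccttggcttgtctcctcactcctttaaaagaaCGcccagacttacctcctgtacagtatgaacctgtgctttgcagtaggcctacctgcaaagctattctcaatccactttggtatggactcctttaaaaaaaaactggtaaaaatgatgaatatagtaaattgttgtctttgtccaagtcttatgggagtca

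Among the 160 values of the rule (32 windows in 5 WT libraries), 84 were at most 10% and 76 were at least 70%. Of the low values, 53 were exactly 0, and in 13 windows every low library was at 0. The high values had a median of 81.1%. Nearest to the limits on the inside were chr1:41679001-41680000, where WT 4 was at 10%, and the Adamts3 window chr5:89801001-89802000, where WT 2 was at 70.2%. Nearest on the outside were chr3:140455001-140456000, where WT 4 was at 68.8%, and chr6:98082001-98083000, where WT 1 was at 68.8%. No window outside lay within 1 percentage point of the rule, and 23 lay within 5 points.

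**Figure D1:**
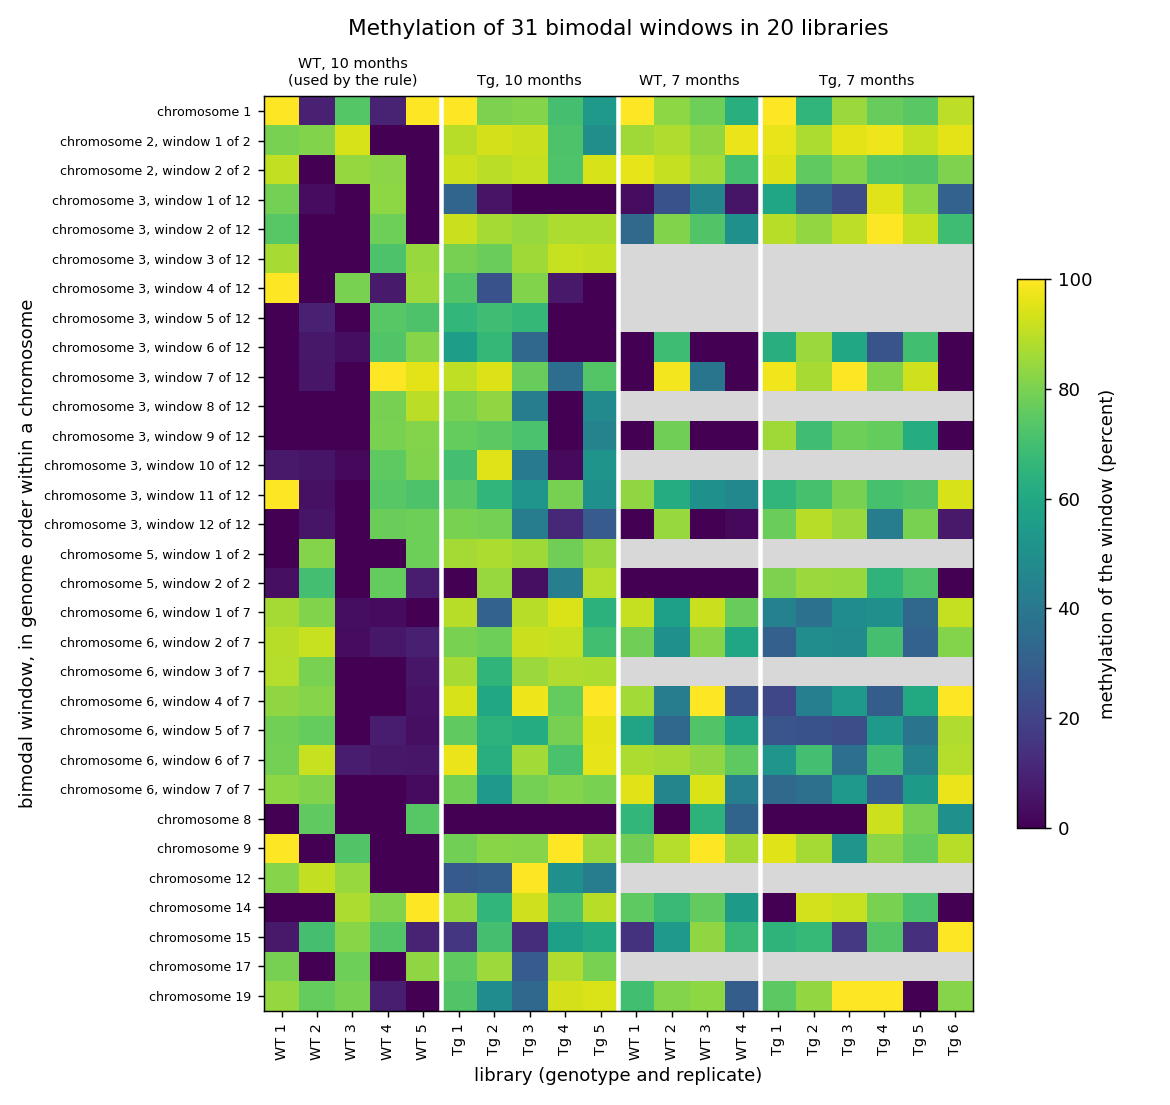
Methylation in percent (color) of 31 bimodal windows (rows, in genome order within each chromosome) in the 20 libraries (columns, by genotype, age and replicate). Grey marks the 9 windows not measured at 7 months, and the WT libraries at 10 months, at left, are split into 2 states by the rule itself.

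Which libraries were low differed from window to window. In 20 windows 3 WT libraries were low and in 12 windows 2 were low, and each library was low in 12 (WT 1) to 21 (WT 3) of the 32 windows. The windows showed 12 of the 20 possible sets of low libraries. Most frequent, with 7 windows each, were WT 1, 2 and 3, all on chromosome 3, and WT 3, 4 and 5, all on chromosome 6. WT 2 and 4 were low together in 4 windows on chromosomes 1, 3 and 17, and WT 4 and 5 in 3 windows on chromosomes 2, 12 and 19. WT 2 and 3 were low in 2 windows and WT 2, 3 and 5 in another 2, all on chromosome 3. WT 1, 3 and 4 were low in 1 window each of chromosomes 5 and 8. The remaining 5 windows each had a set of their own.

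The windows were concentrated on a pair of chromosomes. Chromosome 3 held 12 and chromosome 6 held 7, together 59.4% of the bimodal windows against 12.7% of all autosomal windows measured. That was 8.28 bimodal windows per 100000 measured on chromosome 3 and 5.08 on chromosome 6. The other 10 chromosomes with a bimodal window held 1 or 2 each, at 0.565 (chromosome 1) to 2.36 (chromosome 17) per 100000, and 7 of the 19 autosomes held none.

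At close range the windows were sparse. Another bimodal window started within 10 kb of 2 of the 32 (6.25%), within 100 kb of 4 (12.5%), within 1 Mb of 9 (28.1%) and within 10 Mb of 18 (56.2%). They occupied 28 of 2413 bins of 1 Mb, and the fullest bin held 4. No run of at least 3 windows with the same split and starts within 100 kb of each other was found. The runs described next have no limit on distance, which was decided with the values in view.

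Neighbours on a chromosome mostly divided the WT libraries in the same way. The 5 libraries can be split in 10 ways, counting only which libraries stand together and not which side is low. Both pairs of consecutive windows within 100 kb shared their split, as did 3 of 4 pairs at 100 kb to 1 Mb and 6 of 7 at 1 to 10 Mb. Beyond 10 Mb, 2 of 7 consecutive pairs did, both on chromosome 6. Most consecutive pairs lay on chromosomes 3 and 6. Elsewhere the pair on chromosome 17 shared its split, and those on chromosomes 2 and 5 did not. Of all 406 pairs on different chromosomes, 43 (10.6%) shared the split, and of all 90 pairs on 1 chromosome, 45 (50%) did. Windows of 1 mouse share a genome and a library, so these pairs are not independent and are not tested.

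**Figure D2:**
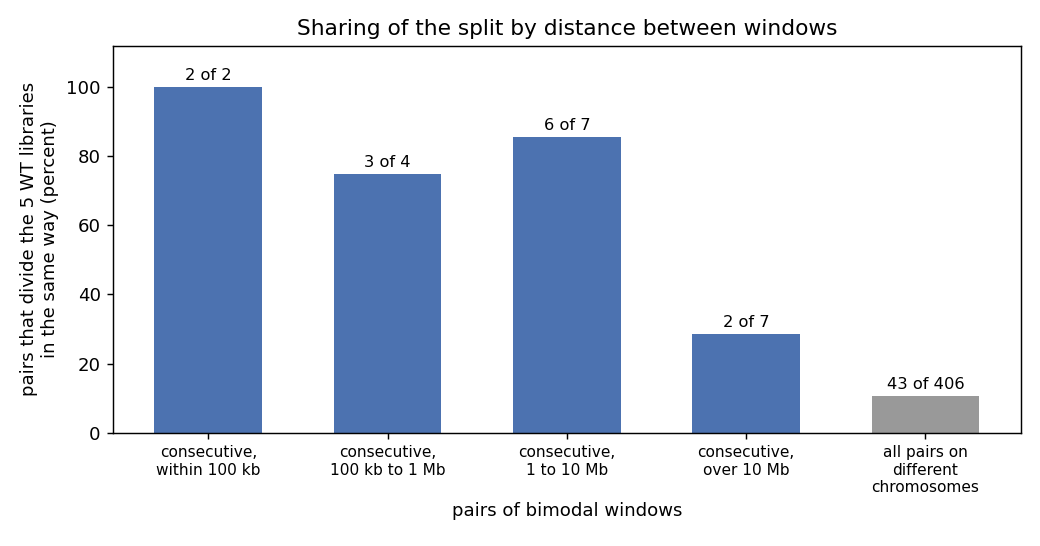
Share of pairs of bimodal windows (percent, y axis) that divide the 5 WT libraries at 10 months in the same way, by distance between the windows (x axis), with the number of pairs above each bar. Consecutive windows up to 10 Mb apart shared the split in 11 of 13 pairs, and pairs on different chromosomes in 43 of 406. Most of the consecutive pairs lay on chromosomes 3 and 6.

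Some stretches held consecutive windows with 1 split and the same low libraries throughout. On chromosome 6 all 7 windows, from base 73501001 to 101490000 (28.0 Mb), were low in WT 3, 4 and 5. On chromosome 3, 6 consecutive windows from base 134973001 to 139962000 (4.99 Mb) were low in WT 1, 2 and 3. A window at chr3:142952001-142953000 had that set too, past an exception at chr3:140606001-140607000, where WT 1 was at 100%. Near the start of chromosome 3, chr3:7082001-7083000 and chr3:15383001-15384000 were low in WT 2, 3 and 5. Bimodal windows were a small part of these stretches, 7 of 26561 measured windows (0.0264%) on chromosome 6 and 8 of 7415 (0.108%) from 134973001 to 142953000 on chromosome 3.

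A looser rule, at most 20% or at least 60%, gave 119 windows, of which 44 lay on chromosome 3 and 18 on chromosome 6. It reads the same WT libraries and includes every bimodal window, also those that marked out the stretches. Its counts are therefore a description and no separate support for the stretches. In the distal chromosome 3 stretch 22 of its 23 windows had WT 4 and 5 against the rest. Over the whole of chromosome 3 this split was found in 23 of 44, and WT 2 and 3 stood against the rest in 10. In the chromosome 6 stretch 12 of 13 windows had WT 3, 4 and 5 against the rest, and 15 of the 18 on the whole chromosome did, from base 54054001 on.

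On chromosome 6 the low state was not seen outside the WT libraries at 10 months. In the 7 windows WT 3, 4 and 5 had medians of 0%, 2.86% and 4.76%, and WT 1 and 2 had 83.3% and 81.1%. Among the Tg libraries at 10 months the medians were 87.1%, 62.5%, 86.2%, 81.2% and 87.5% for Tg 1 to 5, and none of the 35 values was at most 10%. Tg 2 had the lowest median, with values from 31.4% to 77.98%, but was above Tg 5 (69.8%) in chr6:75973001-75974000 and, at 64.6%, above Tg 3 (61.9%) in chr6:98494001-98495000. At 7 months 6 of the windows were measured, and again none of the 60 values was at most 10%. Tg 1 to 5 had medians of 32.6%, 40.2%, 48.3%, 51.9% and 41.6%, while Tg 6 was at 90.1%. WT 1 and WT 3 had medians of 86.8% and 87.6%, and WT 2 and WT 4 of 47.9% and 58.2%. Outside the rule the library medians thus lay from 32.6% to 62.5% in 8 libraries and from 81.2% to 90.1% in the other 7.

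**Figure D3:**
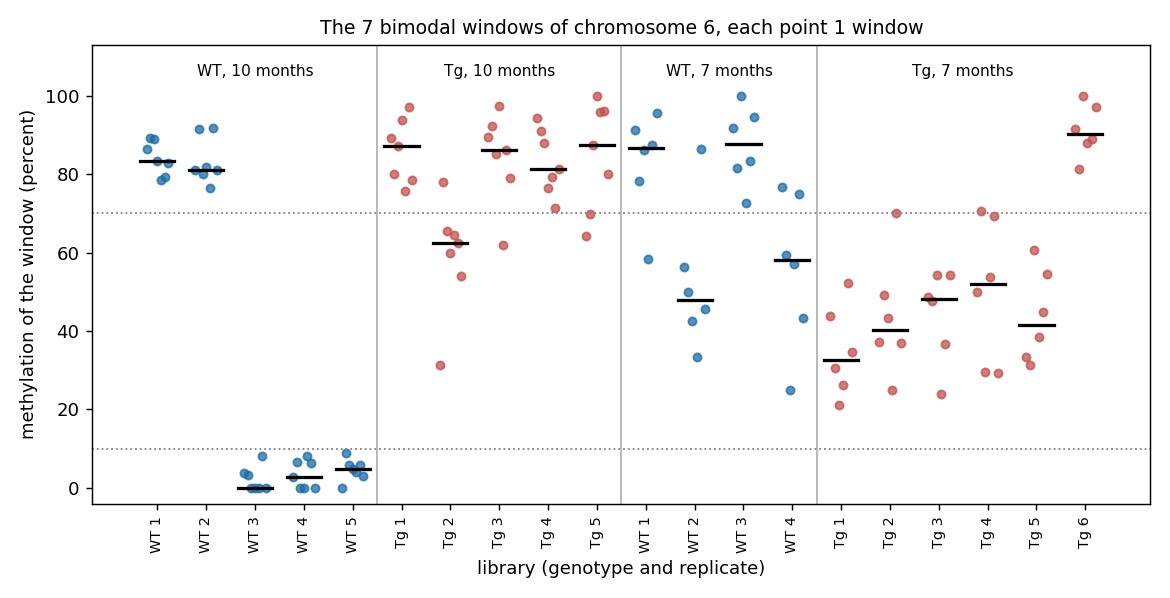
Methylation in percent (y axis) of the 7 bimodal windows of chromosome 6 (6 of them at 7 months) in each library (x axis), 1 point per window, with black bars at the library's median and dotted lines at 10% and 70%. Only WT 3, 4 and 5 at 10 months lie under the lower line, and Tg 1 to 5 at 7 months have medians from 32.6% to 51.9%.

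The window with the most CpGs of this stretch, chr6:73501001-73502000 between genes, gives the pattern in full. It was at 86.5%, 81.1%, 3.70%, 2.86% and 0% in WT 1 to 5 at 10 months. Tg 1 to 5 of that age were at 89.2%, 31.4%, 89.3%, 94.3% and 64.1%. At 7 months WT 1 to 4 were at 91.2%, 56.4%, 91.9% and 76.8%, and Tg 1 to 6 at 43.8%, 37.2%, 48.8%, 50%, 33.3% and 91.4%. The 7-month groups overlapped through Tg 6. Without Tg 6 every Tg library (at most 50%) lay below every WT library (at least 56.4%). With WT 2 left out too, the WT libraries were at least 76.8%.

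The Mitf window, chr6:97823001-97824000, rests on 1 CpG in an intron of a transcription factor gene that acts in pigment cells and in the myeloid lineage. At 10 months it was at 83.3%, 81.8%, 0%, 0% and 4.76% in WT 1 to 5 and at 93.8%, 60%, 97.4%, 76.5% and 100% in Tg 1 to 5. At 7 months it was at 86.0%, 42.4%, 100% and 25% in WT 1 to 4 and at 21.2%, 43.2%, 54.3%, 29.6%, 60.6% and 100% in Tg 1 to 6. No library outside the rule was low, and the genotypes overlapped at 7 months. The single-CpG pair at chr6:101487001-101488000 and chr6:101489001-101490000, whose starts are 2 kb apart, shared the low WT libraries. In Tg at 10 months the former was at 62.5% to 97.1% and the latter at 54.1% to 81.2%. At 7 months the former was at 75% to 87.5% in WT and 36.6% to 88.9% in Tg, and the latter at 43.2% to 95.7% in WT and 29.3% to 97.1% in Tg. The genotypes overlapped in both windows. Without Tg 6 and WT 2 they no longer overlapped in the former, with a difference of -27.4 points, and still did in the latter. Of the other chromosome 6 windows, chr6:75973001-75974000 overlaps the noncoding gene Gm44113 near its start. The windows chr6:87415001-87416000 and chr6:98494001-98495000 lie between genes, the former nearest to Bmp10, a growth factor gene of the heart.

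On distal chromosome 3 the low state was also seen in libraries outside the rule. The 7 windows low in WT 1, 2 and 3 had medians of 0%, 5.56% and 0% in those libraries, and of 77.6% and 81.2% in WT 4 and 5. At 10 months Tg 1 and 2 had medians of 76.2% and 79.2%, Tg 3 and 5 of 42.4% and 44.6%, and Tg 4 of 0%. Tg 4 was at most 10% in 5 of the 7 windows and Tg 5 in 2. At 7 months 4 of the windows were measured. WT 1, 3 and 4 had a median of 0%, as had Tg 6, and these 4 libraries were at most 10% in 15 of 16 values. WT 2 had a median of 81.4%, and Tg 1 to 5 had 81.6%, 86.0%, 81.3%, 59.1% and 74.8%. The libraries with low medians at 7 months were thus WT 1, 3 and 4 and Tg 6. Tg 4 lay between the states in 2 of the 4 windows, down to 25.9%. WT 2 and Tg 6, each apart from its own group here, are the pair whose Thy1 values go against their labels.

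**Figure D4:**
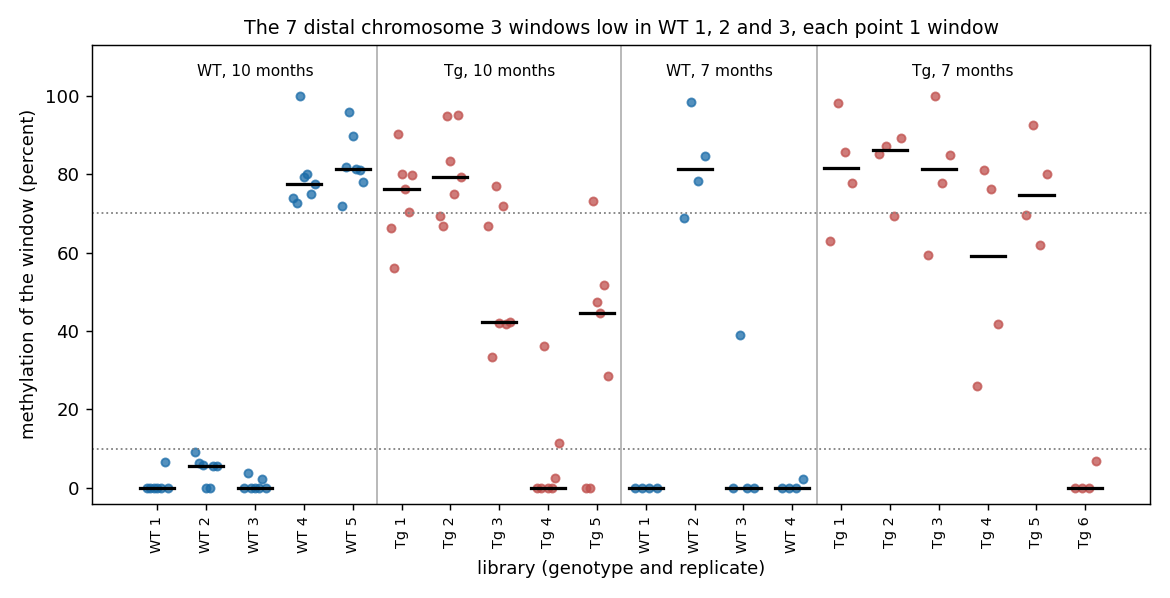
Methylation in percent (y axis) of the 7 distal chromosome 3 windows that were low in WT 1, 2 and 3 at 10 months (4 of them at 7 months) in each library (x axis), 1 point per window, with black bars at the library's median and dotted lines at 10% and 70%. At 7 months WT 1, 3 and 4 and Tg 6 have a median of 0%, and the other libraries have medians of at least 59.1%.

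Of these windows, 3 (chr3:139332001-139333000, chr3:139453001-139454000 and chr3:139548001-139549000) lie in introns of Stpg2, which encodes a protein with sperm-tail repeats. The third of them was at 0% in WT 1, 2 and 3 and at 80% and 81.2% in WT 4 and 5 at 10 months. The Tg libraries of that age were at 76.2%, 74.8%, 71.8%, 0% and 44.6%. At 7 months WT 1 to 4 were at 0%, 78.1%, 0% and 0%, and Tg 1 to 6 at 85.6%, 69.4%, 77.8%, 76.3%, 62.0% and 0%. The 2 states were thus far apart at 7 months, with no library between 0% and 62.0%, while at 10 months Tg 5 lay between (44.6%). The single-CpG window chr3:136437001-136438000, in an intron of the noncoding gene 1700030L20Rik, had 0%, 68.9%, 0% and 0% in WT 1 to 4 and 62.9%, 85%, 59.5%, 25.9%, 69.6% and 0% in Tg 1 to 6 at 7 months. The window chr3:134973001-134974000 lies 1028 bp from the noncoding gene Gm43035. In it Tg 4 and 5 at 10 months were both at 0%, and Tg 1, 2 and 3 were at 66.2%, 69.2% and 66.7%.

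The exception in this stretch, chr3:140606001-140607000, holds 12 CpGs and lies between genes. WT 2 and 3 were low in it, at 4.55% and 0%, while WT 1 was at 100%. At 10 months the Tg libraries were at 50.4% to 79.6%, and at 7 months the WT libraries were at 46.7% to 83.3% and the Tg libraries at 65.9% to 93.9%. No library outside the rule was low there, unlike in the windows on either side.

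In the other parts of chromosome 3 the states were less alike. The window chr3:7082001-7083000, between genes, was at 79.2%, 3.45%, 0%, 82.9% and 0% in WT 1 to 5 at 10 months. The Tg libraries of that age were at 32.8%, 5.41%, 0%, 0% and 0%, and at 7 months those of Tg were at 22.7% to 95% with a median of 45.8%. WT 1 to 4 at 7 months were at 3.33%, 25%, 45.3% and 5.71%. The window chr3:15383001-15384000, in an intron of Sirpb1a, a gene of the signal regulatory protein family of myeloid receptors, had the same low WT libraries. Its Tg libraries at 10 months were all at 84.6% to 92.0%. At 7 months WT 1 to 4 were at 34.6%, 81.1%, 73.0% and 50%, and the Tg libraries at 68.9% to 100%. The difference was 27.5 points (unadjusted p = 0.0166, adjusted p = 0.936, limma). Without Tg 6 and WT 2 it was 38.3 points (unadjusted p = 0.00446, adjusted p = 0.533, limma), and the groups no longer overlapped. The Mecom window chr3:30343001-30344000, in an intron of a zinc finger regulator of blood stem cells, was at 77.4% to 91.7% in Tg. In chr3:81235001-81236000, nearest to the growth factor gene Pdgfc, Tg 4 and 5 were at 6.67% and 0%, Tg 2 at 25%, and Tg 1 and 3 at 73.3% and 81.0%. Both of these were measured at 10 months only.

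Among the 13 windows on other chromosomes, the window overlapping an exon of Sec23b on chromosome 2 was the 1 bimodal window that overlapped an exon of a protein-coding gene. Sec23b encodes a coat protein of vesicles that leave the endoplasmic reticulum. It was at 0% in WT 2 and 5 and at 90.6%, 84.0% and 82.6% in WT 1, 3 and 4. In the other 15 libraries it was high throughout, at 72.6% to 93.8% in Tg at 10 months, 70.5% to 96.3% in WT at 7 months and 72.8% to 94.7% in Tg at 7 months. The low state of this window thus belonged to a pair of the 20 libraries.

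The Adamts3 window, in an intron of a procollagen-processing protease gene on chromosome 5, was at 4%, 70.2%, 0%, 76.2% and 7.84% in WT 1 to 5. Tg 1 to 5 at 10 months were at 0%, 84.7%, 4.17%, 42.9% and 88.7%. At 7 months all 4 WT libraries were at 0%. Tg 1 to 6 were at 80.4%, 84.8%, 84.4%, 65.2%, 72.6% and 0%. Tg 6 alone among the 7-month Tg libraries had the WT value, and WT 2 had it too.

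In chr8:107214001-107215000, nearest to the mitochondrial cytochrome gene Cyb5b, every Tg library at 10 months was at 0%, although WT 2 and 5 were at 75.4% and 74.0%. At 7 months WT 1 to 4 were at 66.1%, 0%, 64.7% and 32.1%, and Tg 1 to 6 at 0%, 0%, 0%, 92.5%, 79.7% and 50%. In chr14:72157001-72158000 Tg 1 and Tg 6 at 7 months were at 0%, and the other 13 libraries outside the rule were at 54.5% to 93.0%. In the Pacs1 window chr19:5256001-5257000, in an intron of a gene for a protein-sorting adaptor, Tg 5 at 7 months was at 0% and the other Tg libraries of that age were at 74.7% to 100%. The window chr15:70042001-70043000, in the noncoding gene Gm19782, ranged from 13.0% to 70.4% in Tg at 10 months, from 14.6% to 83.3% in WT at 7 months and from 13.9% to 100% in Tg at 7 months, without a value at most 10% in any of them.

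Another 6 windows had no low library outside the rule. They were chr1:41679001-41680000 (53.7% to 100% in Tg at 10 months), chr2:51522001-51523000 (49.3% to 93.4%), chr5:16712001-16713000 (78.5% to 87.6%) and chr9:48578001-48579000 (78.7% to 100%, nearest to Nnmt, a nicotinamide methyltransferase gene). With them were chr12:27674001-27675000 (28.1% to 100%) and chr17:4330001-4331000 (29.2% to 88.2%). Those measured at 7 months were at 52.5% to 100% in every library of that age. All of these lie between genes.

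Library by library, the share of low values outside the rule was above that over all autosomal windows in 14 of the 15 libraries. The rule fixed the share in its own WT libraries, so the others are not compared with them. In the Tg libraries at 10 months 21 of 160 values (13.1%) were at most 10%, 45 (28.1%) lay between and 94 (58.8%) were at least 70%. Over the 5 libraries the low share ran from 6.25% to 25%, against 1.33% to 1.41% of all autosomal windows in the same libraries. In WT at 7 months 20 of 92 values (21.7%) were low, with 8.70% to 30.4% per library. In Tg at 7 months 11 of 138 (7.97%) were low, and 6 of these 11 belonged to Tg 6. Tg 1 to 5 had 0 to 2 low windows of 23, and Tg 4 had none (0%, against 1.49% of all autosomal windows). Over all autosomal windows the low share was 1.26% to 1.43% in WT and 1.34% to 1.52% in Tg at 7 months.

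The strict 2-state pattern, which the rule required of the WT libraries at 10 months, was also counted in the other groups. At 10 months 22 of the 32 windows had no low Tg library, against 98% of all autosomal windows. Low and high Tg libraries stood side by side in 6 windows. In 5 windows all 5 Tg libraries were high, against 59.6% of all autosomal windows. No window had at least 2 Tg libraries of that age on each side with none between. At 7 months 1 of 23 had, chr14:72157001-72158000, where one of the 2 low libraries was Tg 6. At 7 months 4 of 23 windows held low and high WT libraries side by side and 8 of 23 held low and high Tg libraries. Without WT 2 and Tg 6, a count added after the data were seen, these were 0 and 3 of 23. Over all autosomal windows such a pair of states was found in 0.0970% (Tg at 10 months), 0.0865% (WT at 7 months) and 0.187% (Tg at 7 months). Applied to the 5 Tg libraries at 10 months, the same rule found 41 windows on 10 chromosomes. None of them was among the 32, 7 lay on chromosomes 3 and 6, and 10 lay on chromosome 7, which held none of the WT set.

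Neighbours with the same split were also read in the libraries outside the rule, wherever both windows were low or high. The 2 pairs within 100 kb gave 10 such comparisons, 9 high in both windows and 1 low in both. Of these, 7 came from the chromosome 6 pair, where no library outside the rule was low and the states could not differ. Of the 8 pairs over 1 Mb apart, 4 lay on chromosome 6 and gave 18 comparisons with the same limit, all high in both windows. The 4 pairs on other chromosomes gave 17, of which 11 kept the relation of the WT libraries, 6 high in both windows and 5 low in both. When each library was only placed below or above 50%, the relation was kept in 12 of 20 comparisons within 100 kb and in 60 of 80 over 1 Mb. Windows of 1 mouse are not replicates, so no test was made.

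Tg and WT at 7 months were compared in libraries that the rule had not used. With limma over all 2260746 windows of that age, none of the 23 bimodal windows was called, a call being a Benjamini-Hochberg adjusted p under 0.01 and group means at least 25 percentage points apart. The background was 0% called, since no window of the genome passed. Of the 23 windows, 9 had an unadjusted p under 0.05, where 5.28% of all windows did, and 9 had means at least 25 points apart, where 0.179% did. No bimodal window had groups that did not overlap (background 1.05%). The bimodal windows were chosen because mice of the same genotype differed in them, unlike most windows of this background. Several of them also share a stretch. The counts are therefore a description, and no effect of genotype is read from them.

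The direction of the 7-month difference went with the chromosome. Mean methylation was higher in Tg in 7 of 7 windows of chromosome 3, by 15.3 to 42.3 points, and lower in Tg in 6 of 6 windows of chromosome 6, with differences from -28.3 to -11.9 points. Over the other 10 windows the differences ran from -12.3 to 64.6 points, 6 higher and 4 lower in Tg, with a median of 0.97 points. Without Tg 6 and WT 2 the directions on both chromosomes were as before, and the median difference went from 34.1 to 60.6 points on chromosome 3, from -17.1 to -28.9 on chromosome 6 and from 0.97 to -0.65 over the others. These values are a description, because windows of 1 stretch are not replicates of each other. In the Adamts3 window, with the smallest unadjusted p of the set, Tg was at 64.6% ± 32.5 (SD, n = 6) and WT at 0% ± 0 (n = 4), and limma's adjusted p was 0.936. The window chr6:73501001-73502000 was at 50.7% ± 20.9 in Tg and 79.1% ± 16.6 in WT (adjusted p = 0.936, limma).

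Without Tg 6 and WT 2, 3 of the 23 windows were called by limma, all higher in Tg, against a background of 0.0146% (331 windows in all). They were the Adamts3 window at 77.5% ± 8.47 (SD, n = 5) in Tg and 0% in WT (n = 3, adjusted p = 6.83e-05), the Stpg2 window chr3:139548001-139549000 at 74.2% ± 8.93 and 0% (adjusted p = 9.29e-05) and chr3:142952001-142953000 at 74.7% ± 18.9 and 0.733% ± 1.27 (adjusted p = 0.00923). The window chr3:136437001-136438000 missed the threshold with a difference of 60.6 points and an adjusted p of 0.0106, and chr6:73501001-73502000 with a difference of -44.0 points and 0.0599. In 10 of the 23 windows the groups no longer overlapped, where 5.05% of all windows did not. The windows were chosen for differing between mice of the same genotype, so this count is a description. Leaving out Tg 6 alone gave 1 call among the 23, the Adamts3 window (adjusted p = 4.46e-05, limma), with 16 windows called in all (0.000708%). Leaving out WT 2 alone gave 0 calls among the 23 and 55 in all (0.00243%). The pair was set apart by the Thy1 window, and the chromosome 3 values of the same pair had been known. These calls are therefore not independent of the choice to leave the pair out. At 10 months the Tg libraries differed among themselves in the called windows. In the Stpg2 window Tg 4 was at 0% and Tg 1 at 76.2%. In the Adamts3 window Tg 1 was at 0% and Tg 5 at 88.7%. In chr3:142952001 Tg 4 and 5 lay below Tg 1, 2 and 3. The called chromosome 3 windows share a stretch. In the Adamts3 and Stpg2 windows the WT values left at 7 months had no spread. No effect of genotype is read from these calls.

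Between ages in Tg no bimodal window was called either. Limma over the 2214076 windows measured at both ages called 6 windows (0.000271%), and 0 of the 23 were among them, with 6 of the 23 at an unadjusted p under 0.05 (background 5.52%). Chromosome 6 windows had higher means at 10 than at 7 months in 6 of 6, by 22.4 to 34.04 points, and chromosome 3 windows lower means in 6 of 7. The chr6:75973001-75974000 window was at 82.2% ± 9.41 (SD, n = 5) at 10 months and 51.8% ± 20.5 (n = 6) at 7 months, with an adjusted p of 0.832 in limma. The chr3:7082001-7083000 window was at 7.64% ± 14.2 and 53.9% ± 29.98 (adjusted p = 0.751). The smallest adjusted p among the 23 was this last one. Without Tg 6 limma called 4 windows (0.000181%), with 0 of the 23 among them. Chromosome 6 windows were then higher at 10 months in 6 of 6, by 28.1 to 43.7 points, and chromosome 3 windows lower in 7 of 7. The difference in chr6:75973001-75974000 went from 30.4 to 36.3 points. Windows of a stretch are not replicates of each other, so these directions are a description. So is the count at an unadjusted p under 0.05, because the windows were chosen for differing between mice of the same genotype.

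Between Tg and WT at 10 months, where the WT libraries chose the windows, 0 of the 32 were called by limma beside a background of 0.0327% (746 of 2280867 windows). Means were higher in Tg in 26 of 32 windows and in 7 of 7 of chromosome 6. Nothing is read from these counts, since the rule set the WT values.

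The bimodal windows held fewer CpGs than other windows, a feature that the rule did not use. Their median was 4 reference CpGs, with a range from 1 to 22, against 7 over all autosomal windows. A single CpG was present in 6 of 32 (18.8%, against 2.79% of all autosomal windows) and at most 3 CpGs in 13 (40.6%, against 18.01%). At least 10 CpGs were present in 5 (15.6%, against 32.03%). Per 100000 measured windows this came to 9.67 bimodal windows at 1 CpG, 2.79 at 2 CpGs and 0.702 at 10 or more. The windows' values over few CpGs rest on fewer sites, and the part of this in the 2-state pattern was not tested.

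**Figure D5:**
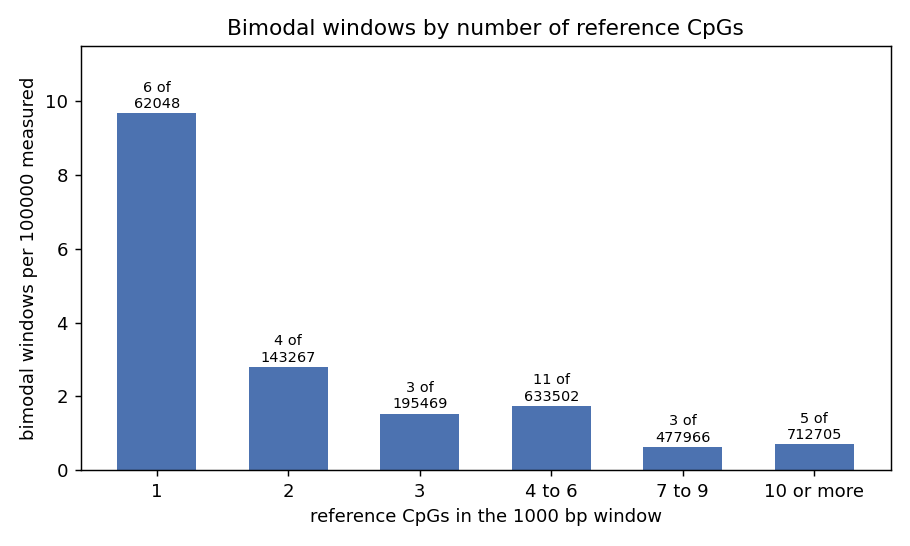
Bimodal windows per 100000 measured autosomal windows (y axis) by the number of CpGs in the reference sequence of the window (x axis), with the counts above each bar. The bar for 1 CpG stands at 9.67 and that for 10 or more at 0.702.

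Repeat-masked bases made up a median of 47.6% of a bimodal window, from 14.1% to 100%, against 23.8% over all autosomal windows. By position 19 of the 32 (59.4%) lay between genes, 11 (34.4%) in introns, 1 in an exon and 1 within 2 kb of a start. The same shares over all autosomal windows were 47.3%, 38.2%, 2.83% and 11.7%. None of the 10 gene lists that were looked up held a bimodal window. Over all autosomal windows the rate was 1.44 bimodal windows per 100000 measured, and with lists of this size nothing is read from these counts of 0. The lists were olfactory receptors (0 of 10742 measured windows), vomeronasal receptors (0 of 6401), zinc finger proteins (0 of 12800), major histocompatibility genes (0 of 303), Toll-like receptors (0 of 194), secretoglobins (0 of 206), keratins (0 of 560), protocadherins (0 of 3494), imprinted genes (0 of 826) and microglial marker genes (0 of 570).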

How the data were processed

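The authors trimmed EM-seq reads with Trim Galore 0.6.7, aligned them to mm10 with Bismark 0.23.1 and Bowtie2 2.2.5, and summarised uniquely mapped reads in windows of 1000 bp with methylKit 1.22.0. The deposited values are methylation fractions per window and library, given by the authors from 0 to 1, and were multiplied to percent. The table of each age was checked against the 20 library files, with a largest difference of 0. A thymine in a mouse's own genome at a reference CpG is read like an unmethylated cytosine, and genotypes of the mice were not used here. Sequencing batches are not assigned to libraries in the labels, so no value within batches was computed. Windows were annotated by midpoint with GRCm38 and GENCODE vM21, a promoter lying within 2 kb of a start.

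Every window of a table was put on the scale log2((percent + 1)/(101 − percent)) and tested with limma 3.58.1 (R 4.3.3) and Benjamini-Hochberg adjustment. Called windows had an adjusted p under 0.01 and at least 25 percentage points between means. The study used the same numbers, but set 0.01 on a q-value from methylKit. Its test needs read counts and could not be run on the fractions, so the calls are not like for like. Of the 3 comparisons, those at 7 months and between ages used no library of the rule. The step was tested on simulated data, with 200 windows lowered by 50 points in each comparison. It recovered 135 of the 200 at 7 months, 157 between ages and 140 at 10 months. Among the unchanged windows it called 2, 0 and 1. Recovery in bimodal windows alone was not tested. P-values measure the spread between mice. Python 3.11.15 with pandas 2.3.3 and numpy 2.4.6 did the rest.

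Bimodal windows, lists and tests were chosen with earlier results of these data known. Windows were to be named from blocks within 100 kb (0 found), from the 6 with the most CpGs at exons or starts of protein-coding genes (1 found), from calls, and from those nearest the limits. The other windows, with the runs and single-CpG windows, were named after their values were seen. Of the 32 windows, 1 is counted but not reported here on its own.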

Additional observations from a re-analysis of the deposited data

Results flagged for a closer look

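Outside the rule, 78 groups of 4 to 6 libraries were examined for a highest or lowest library set far from the rest (Dixon's 95% limit). In 16 such a library was found, where chance gives about 1 in 20 for independent groups of normally distributed values. Most of these groups are windows of the same mice and are not independent. The windows were also chosen for 2 states, and a library alone in its state is readily set apart. The rate is therefore a guide only, and nothing is read from the count. At 7 months Tg 6 was the library set apart in 6 of the 16 and WT 2 in 3. Tg 6 was at 0% in chr3:139332001-139333000, chr3:139548001-139549000 and chr5:89801001-89802000, where the nearest Tg library was at 81.0%, 62.0% and 65.2%. It was at 91.4% in chr6:73501001-73502000 and at 97.1% in chr6:101489001-101490000, above the next Tg library at 50% and 54.5%. It was at most 10% in 6 of the 23 windows, where the next Tg library was so in 2. WT 2 was at 68.9%, 78.1% and 84.7% in chr3:136437001-136438000, chr3:139548001-139549000 and chr3:142952001-142953000, where no other WT library of that age exceeded 2.198%. Tg 5 was at 0% in the Pacs1 window, against 74.7% in the next.

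At 10 months the Tg libraries set apart were spread over 4 mice. Tg 4 was at 72.6% in the Sec23b window (next 89.6%) and at 100% in chr9:48578001-48579000 (next 84.8%). Tg 2 was at 65.4% in chr6:87415001-87416000 (next 85.0%) and at 54.1% in chr6:101489001-101490000 (next 78.6%). Tg 1 was at 32.8% in chr3:7082001-7083000 (next 5.41%), and Tg 3 at 29.2% in chr17:4330001-4331000 (next 75.8%). The labels of Tg 6 and WT 2 at 7 months go against the Thy1 window, and no sign of this kind was found for the 10-month libraries.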

How the results depend on the processing

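The limits set the number of bimodal windows. At most 5% or at least 80% left 8 windows, with 0% near another within 100 kb, and at most 20% or at least 60% gave 119. Leaving out 1 WT library at a time gave 27 to 37. The share of windows near another within 100 kb then ran from 5.88% (without WT 1) to 21.6% (without WT 3), with 7.14% without WT 4. The share within 1 Mb was 50% without WT 2 or WT 4, 47.1% under the looser limits and 11.54% with at least 2 CpGs, against 28.1%. At least 2 CpGs gave 26 windows and both ages 23. Both pairs within 100 kb share the split, a base of 2 pairs. The relation of neighbours within 100 kb, kept in 100% of 10 comparisons of which 7 could not differ, was kept in 60% when libraries were only placed below or above 50%. Calls of bimodal windows at 7 months ran from 0 to 1 over the libraries left out (1 without Tg 6) and came to 3 without both Tg 6 and WT 2. Over all windows the calls were 16 without Tg 6, 55 without WT 2 and 331 without both, against 0 with every library. Between ages every alternative run gave 0 calls of bimodal windows, which included another pseudocount, limma on the percent itself and each library left out. At 10 months the same runs gave 0 too, but nothing is read from this, since the rule set the WT values. Replicate numbers did not pair the mice (correlations from -0.03 to 0.04), and a replicate block gave 0 calls of bimodal windows in each comparison. Depth is unknown and could not be varied.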
